A study of Mus musculus with 4 samples.

Results

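The neurotrophins, their receptors and a set of neuronal structural genes were followed in fibroblasts that had lost PA1. The 9 genes were Ntrk2, Ntrk3, Ngfr, Bdnf, Ntf3, Gap43, Ncam1, Tubb3 and Nes, out of 18193 genes with a single symbol on the arrays, and every probe set annotated to 1 of them was taken. They had 33 probe sets: 8 each for Ntrk2 and Ntrk3, 7 for Ncam1, 3 each for Ngfr and Nes, 2 for Bdnf, and 1 each for Gap43 and Tubb3. Ntf3 had no probe set under that symbol and was not analysed here. The genes were picked for their level in these cells and with their differences between the genotypes already known, so those differences are given as a description and support nothing by themselves.

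The RNA of immortalised mouse embryonic fibroblasts (MEFs) was hybridised to 4 Affymetrix arrays. MEFs are connective tissue cells grown from embryos. All cultures came from cells with both PA1 alleles flanked by loxP sites (PA1loxP/loxP), grew in DMEM with serum and were selected with puromycin. The PA1 -/- cells (2 arrays, numbered 1 and 2) had received a retrovirus carrying Cre recombinase, which cuts out DNA between loxP sites, and the PA1 +/+ cells (2 arrays, numbered 1 and 2) had received the empty vector. Expression of Cre and loss of PA1 therefore cannot be told apart. The study asked which genes PA1 regulates. Neither the clonality of the cells nor whether the numbers stand for separate cultures is stated in the labels, so the spread between arrays of a genotype may be technical in part.

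Neurotrophins are secreted growth factors that keep neurons alive and guide the growth of their processes. BDNF acts through the receptor tyrosine kinase TrkB, encoded by Ntrk2, and NT-3, encoded by Ntf3, acts mainly through TrkC, encoded by Ntrk3, while all neurotrophins bind the p75 receptor encoded by Ngfr. GAP-43 is a membrane-bound protein of growing axon tips, NCAM is an adhesion molecule of the immunoglobulin superfamily, Tubb3 encodes the beta-tubulin class III used as a marker of neurons, and nestin (Nes) is an intermediate filament protein of neural progenitors that cultured mesenchymal cells also make.

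In the PA1 -/- cells Gap43, Ntrk3 and Tubb3 were at least 2-fold lower within both replicate numbers, and Ncam1 was lower by a smaller amount on 6 of its 7 probe sets. Bdnf, Ntrk2 and Nes showed no difference of that size in the same direction at both numbers, and Ngfr was dim on all 4 arrays. The promoter sequences below are those of a gene on the lower side (Tubb3), of a gene with little difference (Nes) and of the ligand (Bdnf). They are shown because promoter windows were at hand for these genes. The windows come from RefSeq (GRCm38.p6), run from 250 bases before to 50 bases after an annotated start, and are written in the direction of transcription. No window was at hand for Gap43, Ntrk3 or Ncam1.

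The Tubb3 window lies at chr8:123411303-123411602 on the plus strand, with capitals marking GGGCGG, a GC box, on either strand.
Tubb3: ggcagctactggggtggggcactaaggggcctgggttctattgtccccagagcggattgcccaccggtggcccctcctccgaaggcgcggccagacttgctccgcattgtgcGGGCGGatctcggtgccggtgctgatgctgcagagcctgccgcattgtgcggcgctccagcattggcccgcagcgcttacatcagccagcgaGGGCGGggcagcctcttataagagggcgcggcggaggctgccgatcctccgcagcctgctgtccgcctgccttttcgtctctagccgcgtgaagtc
The Nes window lies at chr3:87970843-87971142 on the plus strand, with capitals marking the same motif, which here reads on the opposite strand.
Nes: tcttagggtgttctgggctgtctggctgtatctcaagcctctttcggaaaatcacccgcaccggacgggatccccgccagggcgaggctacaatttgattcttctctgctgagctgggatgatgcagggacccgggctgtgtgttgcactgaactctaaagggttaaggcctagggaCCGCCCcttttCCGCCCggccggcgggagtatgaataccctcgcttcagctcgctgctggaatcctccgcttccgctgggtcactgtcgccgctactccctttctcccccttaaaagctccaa
Of the 7 Bdnf windows, the 1 at chr2:109692186-109692485 on the plus strand is shown, with capitals marking TCACGTCA, a variant of the cyclic AMP response element.
Bdnf: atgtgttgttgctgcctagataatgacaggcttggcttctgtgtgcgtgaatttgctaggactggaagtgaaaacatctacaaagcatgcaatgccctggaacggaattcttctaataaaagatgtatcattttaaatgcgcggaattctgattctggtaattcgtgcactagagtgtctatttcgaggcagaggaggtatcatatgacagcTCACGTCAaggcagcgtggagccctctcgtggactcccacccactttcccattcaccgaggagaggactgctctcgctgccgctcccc

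Of the 13 windows found for 6 of the genes, 8 held GGGCGG, against 35.7% of the 32851 windows of all genes, and 0 held TATAAA, against 13.6%. TCACGTCA was in 1 of the 13 and in 0.441% of all windows. The E-box pattern CANNTG was in 10 of the 13 and in 72.3% of all windows. All motifs were searched on both strands, and CANNTG can overlap the others. CG dinucleotides numbered 26 in the Tubb3 window, 23 in those of Ntrk2 and Ngfr, 18 in that of Nes and 2 to 13 in those of Bdnf, against a median of 7 over all windows. Tubb3 and Nes thus shared 2 GC boxes each while their genotype differences were unlike, and the number of genes is too small for any comparison.

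Facts of the whole series were as follows. Pagr1a, the gene read here as PA1, had signals of 108 and 113 in PA1 -/- cells on its brightest probe set, against 1340.3 and 1389 in PA1 +/+ cells. Whether its probe sets lie inside the deleted part is not stated. Array medians ran from 63.2 to 66.4, and only the 22519 probe sets in the upper 50% by mean log2 signal were tested. Of the 33 probe sets described here, 13 were tested, from 7 of the genes, and 20 were too dim. With genotype as the only term, limma called 0 of the 22519 probe sets at an adjusted p under 0.05 (0%), and 0 of the 13. Unadjusted limma p-values were under 0.05 for 440 of the 22519 and for 4 of the 13, a count that the choice of genes can set. This fit counts the difference between replicate numbers as spread. With the replicate number as a further term, 4 of the 13 passed, all on the lower side, where 1.46% of all tested probe sets passed on the lower and 0.524% on the higher side, as given under the dependence on the processing. All 9 fibroblast markers were among the tested genes, with summed signals of 79972 and 89767 in PA1 -/- cells and 88144 and 109744 in PA1 +/+ cells. By their log2 differences (PA1 -/- minus PA1 +/+) 8 were below 0 and 1 above. Their median was -0.37, against 0.024 for all tested genes. Within numbers the marker median was -0.075 at number 1 and -0.25 at number 2. Of the 9 markers, 5 were lower at both numbers and 1 higher at both, against 29.3% and 34% of all tested genes.

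Differences are on the log2(signal + 9.96) scale, which understates the change of dim genes, and SE is the standard error of the limma fit with genotype as the only term. The next values begin with the receptors. Ntrk3 read 82.8 and 82.0 on arrays 1 and 2 of PA1 -/- cells, against 261 and 505 on those of PA1 +/+ cells, on its brightest probe set (1433825_at). The PA1 -/- arrays were alike and both lay below both PA1 +/+ arrays, which differed from each other by 0.93. The difference was -1.54 at number 1 and -2.49 at number 2, with a mean of -2.02 (SE 0.403).

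The other 7 probe sets of Ntrk3 were in the dimmer 50%, and they did not all go the same way. Probe set 1455917_at read 18.2 and 15.6 in PA1 -/- cells, against 38.7 and 80.3 in PA1 +/+ cells. Probe set 1425071_s_at read 31.7 and 32.0 in PA1 -/- cells, against 60.1 and 106 in PA1 +/+ cells. On both, the PA1 +/+ array numbered 2 was the highest, as it was on the brightest probe set. Probe set 1422329_a_at read 45.7 and 24.4 in PA1 -/- cells, against 50.1 and 108 in PA1 +/+ cells, a difference of only -0.11 at number 1 and of -1.78 at number 2. On 2 others the PA1 -/- cells were higher: 1426003_at read 35.6 and 55.4 in PA1 -/- cells, against 25.7 and 29.9 in PA1 +/+ cells, and 1443970_at read 39.0 and 51.2 in PA1 -/- cells, against 33.0 and 37.3 in PA1 +/+ cells. In all, 4 of the 8 probe sets were lower at both numbers, 3 were higher at both, and 1 went opposite ways. The third of the higher ones, 1447723_at, read only 0.580 to 3.56, at or below the 20th percentile of all values on every array. Full-length and kinase-lacking forms of TrkC are known, but which form each probe set reads is not given in the files, and the mean over all 8 probe sets was -0.65.

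Ntrk2 was close to the boundary of the tested signals, which lay near 62.8. Its 1 tested probe set, 1420838_at, read 131 and 106 in PA1 -/- cells, against 102 and 90.9 in PA1 +/+ cells. The PA1 -/- values lay above the PA1 +/+ values by little, with differences of 0.34 and 0.20 at numbers 1 and 2 (mean 0.27, SE 0.306). The other 7 probe sets ran from 1.27 to 23.4 over all arrays, so the TrkB gene rests on a single dim probe set.

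Ngfr was not tested because its 3 probe sets lay between 1.35 and 32.3 on all arrays. The brightest, 1454903_at, read 26.3 and 32.3 in PA1 -/- cells, against 24.8 and 5.65 in PA1 +/+ cells, where the PA1 +/+ array numbered 2 stood apart. No level of the p75 receptor gene can be set against another from signals this dim.

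Bdnf, the ligand of TrkB, read 2502 and 2992 in PA1 -/- cells, against 1338 and 3200 in PA1 +/+ cells (1422168_a_at). The PA1 +/+ array numbered 1 was the lowest, and the groups overlapped. The difference was 0.90 at number 1 and -0.097 at number 2 (mean 0.40, SE 0.458). Its second probe set, 1422169_a_at, read 1683 and 2126 in PA1 -/- cells, against 982 and 1962 in PA1 +/+ cells, with differences of 0.77 and 0.12. Within PA1 +/+ cells the arrays numbered 2 and 1 differed by 1.25 and 0.99 on these probe sets, more than the genotypes did at either number. Without the PA1 +/+ array numbered 1 the mean difference of the brightest probe set was -0.23.

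**Figure D1:**
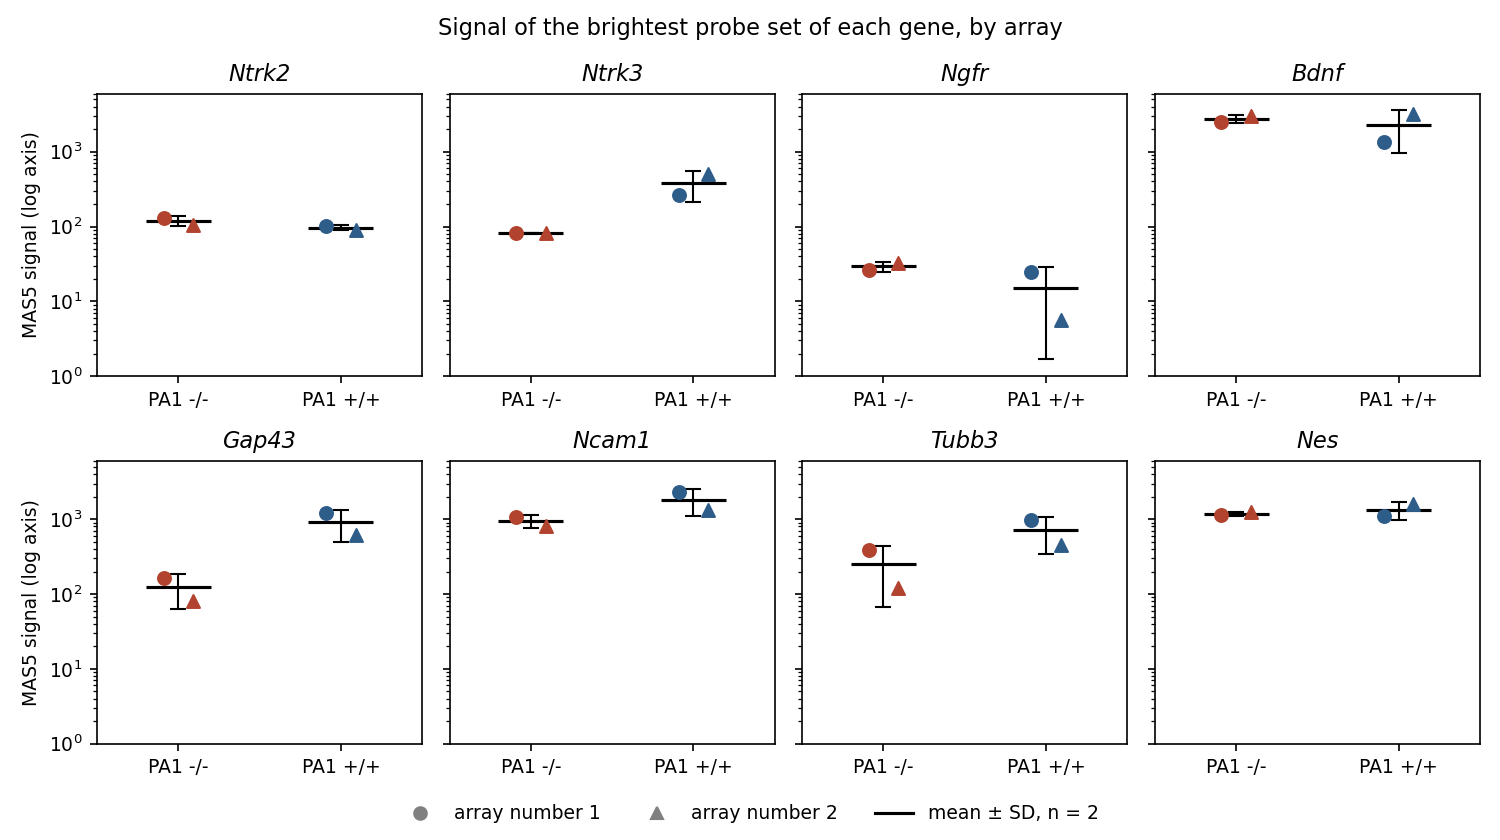
Signals (MAS5 units, log axis) of the brightest probe set of 8 genes on each of the 4 arrays, with PA1 -/- cells left and PA1 +/+ cells right in each panel. Circles are the arrays numbered 1, triangles those numbered 2, and bars the mean ± SD (n = 2). Gap43, Ntrk3, Ncam1 and Tubb3 lie lower in PA1 -/- cells without overlap, while the values of Bdnf and Nes overlap.

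Among the structural genes, Gap43 stood lowest in PA1 -/- cells. Its 1 probe set, 1423537_at, read 166 and 80.4 in PA1 -/- cells, against 1219.6 and 622 in PA1 +/+ cells. In both genotypes the array numbered 1 was higher than that numbered 2, and number 2 minus number 1 was -0.96 in each on the log2 scale. Within numbers the difference was the same, at -2.81 at each (mean -2.81, SE 0.507), which corresponds to a 6.99-fold lower signal at number 1. By its mean difference Gap43 ranked 10th from the lowest of 10714 tested genes, and Ntrk3 ranked 26th.

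Tubb3 read 384 and 122 in PA1 -/- cells, against 963 and 451 in PA1 +/+ cells (1415978_at). Both arrays numbered 1 were above those numbered 2 of the same genotype, with number 2 minus number 1 at -1.57 in PA1 -/- cells and -1.08 in PA1 +/+ cells, so the highest PA1 -/- value lay close to the lowest PA1 +/+ value without overlap. The difference was -1.31 at number 1 and -1.80 at number 2 (mean -1.55, SE 0.666). Tubb3 ranked 61st from the lowest. As the SE counts the difference between numbers as spread, it is wide beside differences that were alike at both.

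Ncam1 had 5 tested probe sets, and on all 5 the PA1 -/- cells were lower at both numbers, with mean differences between -0.98 and -0.74. The brightest, 1426864_a_at, read 1085 and 813 in PA1 -/- cells, against 2323 and 1318 in PA1 +/+ cells. The values did not overlap, and the difference was -1.09 at number 1 and -0.69 at number 2 (mean -0.89, SE 0.368). The next, 1426865_a_at, read 520.4 and 692 in PA1 -/- cells, against 1387 and 949 in PA1 +/+ cells, with differences of -1.40 and -0.45. Probe set 1450437_a_at read 146 and 175 in PA1 -/- cells, against 290 and 259 in PA1 +/+ cells, and 1439556_at read 133 and 118 in PA1 -/- cells, against 355 and 184 in PA1 +/+ cells. On all 5 the difference was larger at number 1 than at number 2. On 1425126_at the groups overlapped, since it read 145 and 74.7 in PA1 -/- cells, against 422 and 91.0 in PA1 +/+ cells. Of the 2 dim probe sets, 1450438_at was lower and 1421966_at, which stayed at or below 4.04, was higher in PA1 -/- cells.

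Nes read 1124 and 1236 in PA1 -/- cells, against 1089 and 1586 in PA1 +/+ cells (1449022_at). The groups overlapped, with differences of 0.045 and -0.36 (mean -0.16, SE 0.284). A second tested probe set, 1418289_at, read 196 and 330.1 in PA1 -/- cells, against 256 and 369 in PA1 +/+ cells, with differences of -0.36 and -0.16. The last, 1453997_a_at, was dim and read 13.4 and 1.71 in PA1 -/- cells, against 21.1 and 25.3 in PA1 +/+ cells. Its differences, -0.41 and -1.60, were larger than the 0.18 between its PA1 +/+ arrays. Its PA1 -/- arrays lay further apart, by more than the difference at number 1 and by less than that at number 2. On both tested probe sets the genotypes differed less than the PA1 +/+ arrays did from each other, which were 0.54 and 0.51 apart. The mean difference over all 3 probe sets was -0.47.

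**Figure D2:**
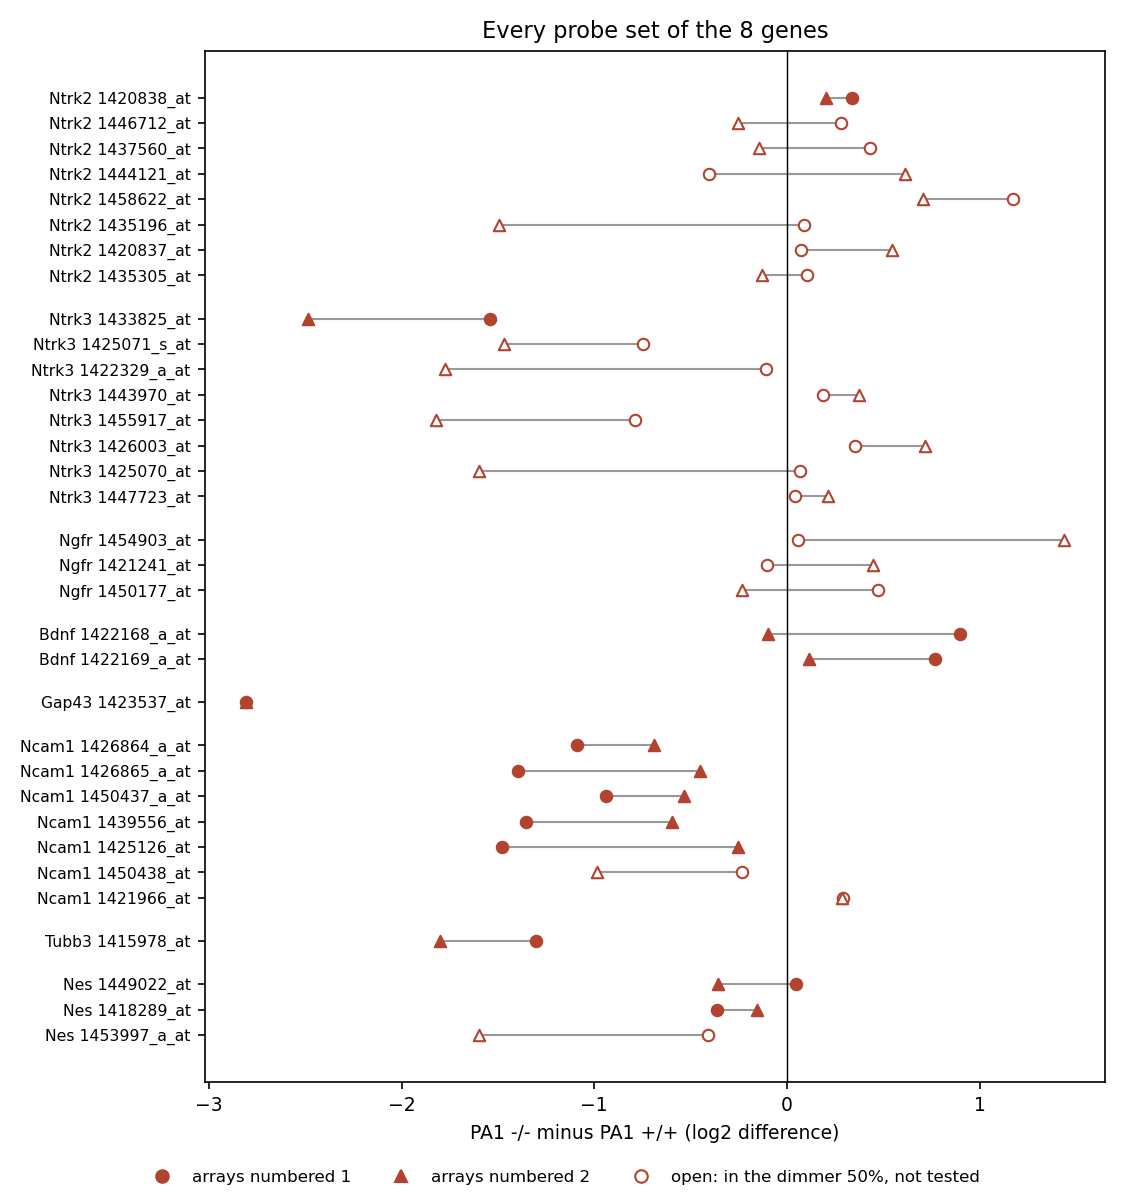
Log2 differences (PA1 -/- minus PA1 +/+) of all 33 probe sets, with circles for the arrays numbered 1, triangles for those numbered 2, and open symbols for probe sets in the dimmer 50%. The 5 filled Ncam1 rows lie below 0 at both numbers, the Gap43 symbols coincide at -2.81, and the Ntrk3 rows lie on both sides of 0.

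Counted over genes, 7 of the 9 had a brightest probe set whose mean signal was over the median of all values (64.9). Of these 7, 3 were at least 2-fold lower in PA1 -/- cells at both numbers (Gap43, Ntrk3 and Tubb3), where 0.95% of all 10842 such genes were, and 0 were at least 2-fold higher at both, where 0.231% were. Ncam1 came just short, at -0.69 for number 2. Over all 33 probe sets, 14 were lower at both numbers and 9 higher at both, against 28.3% and 29.3% of all probe sets on the arrays. Over the 13 tested probe sets, 9 were lower at both numbers and 2 higher at both, against 29.7% and 33.1% of all tested probe sets. Groups did not overlap for 7 of the 13 on the lower side and for 1 on the higher side, against 12.3% and 15% of all tested probe sets. Since the genes were chosen with these differences known, nothing is read from the counts. Probe sets of 1 gene are not replicates, and 5 of the 13 belong to Ncam1. In bulk RNA, fewer cells of a type and less RNA per cell cannot be told apart.

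**Figure D3:**
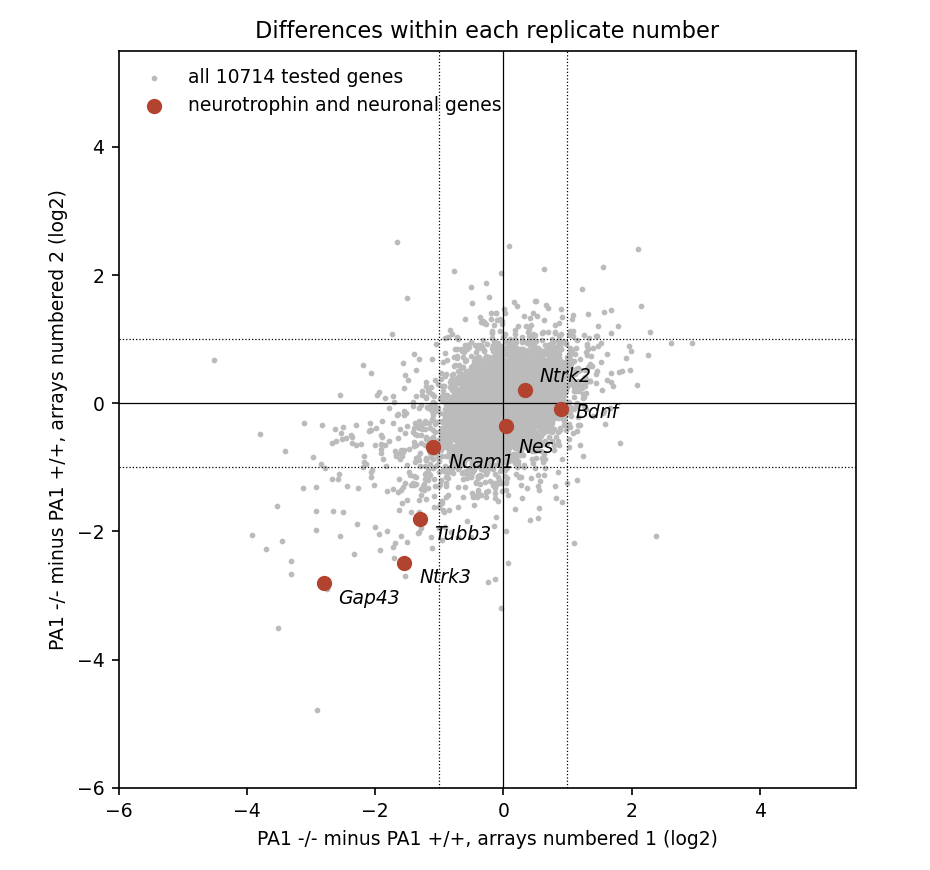
Log2 differences (PA1 -/- minus PA1 +/+) of the 10714 tested genes by their brightest tested probe set, for the arrays numbered 1 (x axis) and 2 (y axis), with 7 neurotrophin and neuronal genes in red. Dotted lines mark a 2-fold difference. Gap43, Ntrk3 and Tubb3 lie beyond it at both numbers, Ncam1 at number 1 only, and Ntrk2, Bdnf and Nes within the cloud.

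Most of the chosen markers of neurons and glia were low. Of 12 neuron markers 11 were in the dimmer 50%, with signals from 0.859 to 59.7, among them Rbfox3, Snap25, Syp and Syt1. The exception was Stmn2, a microtubule regulator of growing neurons, which read 64.1 and 33.4 in PA1 -/- cells, against 423 and 29.8 in PA1 +/+ cells. A second probe set of Stmn2, in the dimmer 50%, read 97.6 and 9.62 in PA1 -/- cells, against 869 and 2.32 in PA1 +/+ cells. On both, the PA1 +/+ array numbered 1 stood far above the other arrays. Outside these markers, some neuronal genes were higher at number 1 in both genotypes. Stmn4 read 529 and 10.0 in PA1 -/- cells, against 575 and 3.23 in PA1 +/+ cells. Map2 read 606 and 44.4, against 793 and 94.1, and Uchl1 read 5043 and 1549, against 4194 and 984. Others, such as Dclk1, Map1a and Eno2, were higher at number 2 in both genotypes. The summed signals of the 12 neuron markers, with the tested probe set of Stmn2, were 395 and 244 in PA1 -/- cells. They were 743 and 273 in PA1 +/+ cells, and no marker was listed at 0. Of 7 glia and Schwann cell markers 1 was tested, Sox10, at 68.7 and 107 in PA1 -/- cells, against 68.5 and 107 in PA1 +/+ cells. The sums of the 7 were 259 and 237 in PA1 -/- cells, against 237 and 237 in PA1 +/+ cells. The tested markers of other cell types were 1 of 4 for skeletal muscle, 2 of 4 for epithelium, 1 of 3 for endothelium and 1 of 3 for blood. Because 11 of the 12 summed neuron markers were dim, their sums cannot show how much neuronal RNA an array held. Whether such RNA had a part in the differences of Gap43, Ntrk3 and Tubb3 was not tested at either number.

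The other genes of the neurotrophin pathway were counted from lists chosen by function, and limma called 0 genes of any list. Among 9 tested neurotrophins, receptors and processing genes, 5 were below 0 and 4 above, with a median of -0.22, against 0.024 for all tested genes. The median was 0.080 at number 1 and -0.19 at number 2, and ranged from -0.38 to -0.066 without each array in turn. Sorcs2, a sortilin-family partner of the p75 receptor that binds proneurotrophins, read 104 and 70.3 in PA1 -/- cells, against 635 and 249.8 in PA1 +/+ cells. Both PA1 -/- arrays were below both PA1 +/+ arrays, and the difference was -2.49 at number 1 and -1.69 at number 2. Sort1, the proneurotrophin receptor sortilin, went the other way with 681 and 200.7 in PA1 -/- cells, against 588 and 116 in PA1 +/+ cells, and overlapped between groups. Lingo1, a partner of p75 in the Nogo receptor complex, differed by 0.36 without overlap but with signals of 48.3 to 79.4. Its PA1 +/+ signals, 62.2 and 48.3, were under the filter boundary near 62.8, so it was tested only through its PA1 -/- signals. Of the 9, 3 were lower at both numbers and 4 higher at both, against 29.3% and 34% of all tested genes. Sorcs2 was the 1 gene of the 9 that was lower without overlap and Lingo1 the 1 that was higher, against 11.3% and 15% of all tested genes.

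Adaptors and signalling genes below the receptors lay mostly on the higher side. Of 23 tested, 19 were above 0 and 15 of these were higher at both numbers, against 34% of all tested genes, and 10 were higher without overlap, against 15%. The median was 0.31, with 0.38 at number 1 and 0.25 at number 2. Rapgef1, an exchange factor for the GTPase Rap1, read 1819.6 and 1819 in PA1 -/- cells, against 732 and 1079.6 in PA1 +/+ cells (difference 1.02), and 0.30 by a second tested probe set. Shc2, an adaptor of Trk receptors, differed by 0.81, Plcg1, a phospholipase that Trk receptors activate, by 0.48, Crk by 0.42 and Kidins220, a scaffold bound by Trk receptors, by 0.41. Those 5 did not overlap between groups. On the lower side the largest was Ndn, which read 1882 and 833 in PA1 -/- cells, against 3564 and 1067 in PA1 +/+ cells and overlapped.

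Growth cone, cytoskeleton and adhesion genes of neurons did not lie to one side by their mean differences. Of 22 tested, 11 were below 0 and 11 above, with a median of -0.039 that was 0.026 after quantile normalization and 0.010 after median scaling. Of the 22, 8 were lower at both numbers and 5 higher at both, against 29.3% and 34% of all tested genes. Tubb2a, a beta-tubulin gene, read 1878 and 1639.9 in PA1 -/- cells, against 3484 and 2918 in PA1 +/+ cells (difference -0.86). Its probe set and that of Tuba1a are of kinds that can bind transcripts of related genes. Tuba1a differed by -0.23, while Tubb4a and Basp1, a membrane protein of growth cones related in function to GAP-43, differed by 0.42 and 0.12. These 4 did not overlap between groups, 2 on each side, against 11.3% lower and 15% higher over all tested genes. Tubb2b, at -0.83 and -0.70 for numbers 1 and 2, overlapped. Of 8 intermediate filament genes 2 were tested, Vim at -0.15 and Synm at -0.17, and both overlapped.

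**Figure D4:**
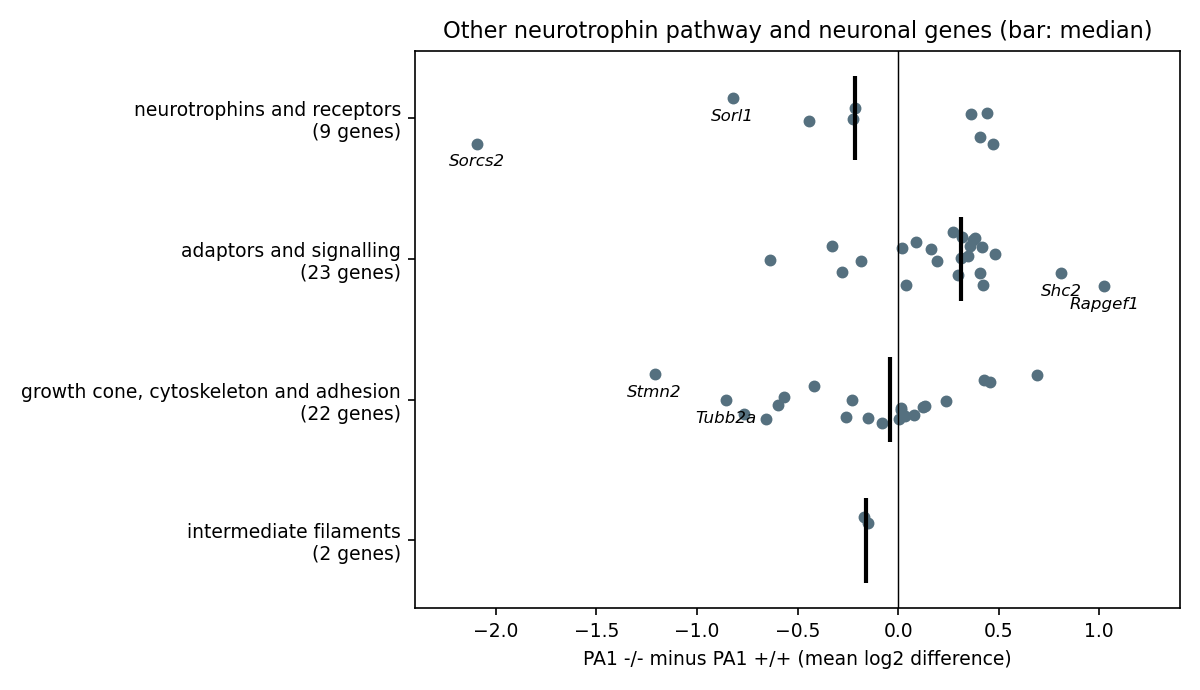
Mean log2 differences (PA1 -/- minus PA1 +/+) of the tested genes of 4 lists, 1 point per gene, with the median of each list as a bar and genes beyond 0.8 named. Points of the adaptors and signalling list lie mostly right of 0, and Sorcs2 lies at -2.09.

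The genes nearest to Gap43 in their 4 centred log2 values, by Euclidean distance over the 10714 tested genes, were Cdc42ep2 (distance 0.43), Il1rn (0.54), Gjb2 (0.59), Dlk2 (0.80) and Sorcs2 (0.82). Gjb2, a connexin gene, read 113 and 38.6 in PA1 -/- cells, against 605 and 238 in PA1 +/+ cells, with the arrays numbered 1 above those numbered 2 in both genotypes, as for Gap43. The nearest to Ntrk3 were Bcl3 (0.27), Kif22 (0.56), Calml4 (0.71), Tgfbi (0.71) and Dnm1 (0.76). Kif22 was unlike Ntrk3 on 2 further probe sets, where its genotype difference was -0.13 and -0.030. Bcl3 read 82.5 and 106 in PA1 -/- cells, against 289 and 515 in PA1 +/+ cells, where array 2 was again above array 1. The nearest to Ntrk2 were Rora, Rspry1, Pptc7, Dnajc5 and Ensa, at 0.016 to 0.045, where the small differences of Ntrk2 make many genes alike. Gap43 and Ntrk3 themselves were 1.69 apart and Gap43 and Tubb3 1.33. In PA1 +/+ cells Gap43 and Tubb3 were higher at number 1, and Ntrk3 was higher at number 2. Gap43 and Tubb3 differed in the size of their mean genotype difference, at -2.81 and -1.55. These distances rest on 4 arrays and describe them.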

How the data were processed

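Each array gave linear probe set signals, an intensity that the authors deposited in 1 table. The submitters' processing notes name MAS5, without a version or settings. The mean signal without the lowest and highest 2% of probe sets was 500.0 on every array, as a global scaling gives, so each difference is relative to the rest of its array. Leaving out 64 control probe sets left 45037. Of these, 34945 had 1 symbol in the platform annotation, 932 had several and 9160 had none. For 34741 of the 34945 probe sets the gene identifier was found in the RefSeq table of GRCm38.p6.

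Signals were analysed as log2(signal + 9.96), with the 20th percentile of all values as pseudocount. The upper 50% by mean log2 signal were tested with limma 3.58.1 in R 4.3.3 (lmFit and a trended eBayes). Its 2-sided p-values were adjusted by Benjamini-Hochberg over the 22519 tested probe sets, with a threshold of 0.05 and 2 residual degrees of freedom. An exact permutation of 2 against 2 arrays reaches no p under 0.333. The fit was tested on simulated data. A gene is read by its brightest probe set. The genes, lists, tests and the rule for named genes (all members, Pagr1a, up to 5 genes per list with the largest difference among those without overlap, and the 5 nearest genes to Gap43, Ntrk2 and Ntrk3) were chosen with earlier results of these data known. Sort1, Ndn, Synm, Vim, Stmn2, Tubb2b, Stmn4, Map2, Uchl1, Dclk1, Map1a and Eno2 were named after their values were seen. Alternatives were other normalizations, pseudocounts, filters and variance models, the mean of all probe sets of a gene, a block for the replicate number, and each array left out in turn. List medians under these were added after seeing the data.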

Additional observations from a re-analysis of the deposited data

How the results depend on the processing

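With genotype as the only term the count of probe sets past the threshold stayed at 0 after quantile normalization and median scaling, with pseudocounts of 1 and 64.9, without the filter, with the upper 30% kept, without an intensity trend, with robust eBayes, and without each array in turn (0 to 0). With the replicate number as a replicate block it was 447 (329 lower and 118 higher, 1.46% and 0.524% of those tested). These included 4 of the 13 probe sets of the genes described, all lower in PA1 -/- cells, for Gap43 (limma adjusted p = 5.82e-05), Ntrk3 (0.00257), Tubb3 (0.00304) and the brightest probe set of Ncam1 (0.0305), as well as Sorcs2 (0.00165), Tubb2a (0.0159), Tubb2b (0.0453) and, on the higher side, Rapgef1 (0.019). This fit leaves 1 residual degree of freedom. Deviations from the group means correlated at 0.805 across tested probe sets between arrays of the same number, but the labels do not say what a number stands for, and 2 numbers are too few to settle it.

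The 3 genes at least 2-fold lower at both numbers stayed 3 under both normalizations and both pseudocounts and were 2 with the mean of all probe sets of a gene, under which Ntrk3 was at -0.65. The probe sets lower at both numbers were 14 of 33, and 15 after quantile normalization. Without 1 array neither count can be had. Without each array in turn the difference of Gap43 ranged from -3.29 to -2.33, that of Ntrk3 from -2.48 to -1.55, that of Tubb3 from -2.34 to -0.77 and that of Ncam1 from -1.30 to -0.48. That of Bdnf ranged from -0.23 to 1.03 and that of Nes from -0.43 to 0.11, so both changed sign. The list medians ranged from 0.16 to 0.46 for adaptors and signalling, from -0.38 to -0.066 for neurotrophins and receptors and from -0.14 to -0.023 for growth cone, cytoskeleton and adhesion genes, and that list was at 0.026 after quantile normalization and 0.010 after median scaling. The cause of these shifts was not tested. Fits without 1 array hold unequal numbers in the genotypes and so mix in the difference between numbers. Dim signals limit Ntrk2 and Ngfr.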
